A study of Mus musculus with 37 samples.

Results

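Nuclear transfer (NT) embryos made with blastomeres as recipients were compared with NT embryos made with oocytes as recipients, to describe how the recipient cytoplasm bears on the transcripts found after a fibroblast nucleus has been introduced. The embryos were chosen by their titles, which gave 3 arrays of blastomere NT embryos and 2 arrays of oocyte NT embryos, 5 of the 37 arrays of the series and 5 of the 15 that used the second array version. The study exchanged the genome of mouse zygotes and blastomeres at mitosis and followed gene expression over the next cell cycle. RNA of embryos kept in KSOM medium was isolated with a PicoPure kit, amplified and biotin labelled with the Illumina TotalPrep kit, and read on single-colour bead arrays.

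Blastomere NT embryos were collected 14 h after transfer. The design text names tail tip skin fibroblasts as the nuclei moved into blastomeres, while the labels of these 3 arrays do not name the donor. Oocyte NT embryos were collected 2 d after transfer and were made from MII oocytes, which are arrested at metaphase of the second meiotic division, with interphase tail tip fibroblasts as donors. The reference embryos were 4-cell controls (2 arrays), collected 14 h after release from a mitotic block, a parthenote sample (1 array, 2 d after activation of an egg without a sperm genome) and unfertilised MII oocytes (2 arrays). Recipient cell, time after transfer and array slide changed together between both kinds of NT embryo and cannot be told apart. All blastomere NT arrays lay on slide 7 and both oocyte NT arrays on slide 6, and 1 4-cell control lay on each of them. The number of embryos pooled per array is not stated in the sources used.

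As background, a somatic nucleus placed in egg or embryo cytoplasm is reprogrammed when its own transcription programme is shut down and the embryonic programme is switched on. The MII oocyte holds a large store of maternal messenger RNA, which is degraded in steps after activation as the embryonic genome takes over. A cleavage-stage blastomere has already passed through much of that clearance and transcribes its own genome. In mitosis the nuclear envelope breaks down and many chromatin factors disperse into the cytoplasm, which makes the mitotic cell a possible recipient.

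Blastomere NT arrays 1 and 3 were nearly identical and were averaged as 1 sample, which left 2 blastomere NT samples. Across 14760 probes their log2 values correlated at r = 0.995 and the standard deviation of their difference was 0.266. Array 2 stood apart from both, with r = 0.951 and standard deviations of 0.807 and 0.806. The labels call the oocyte NT arrays biological duplicates, and these had r = 0.957 and a standard deviation of 0.747. For the blastomere NT arrays nothing says that they came from separate batches of embryos, so the p-values may measure technical spread. The share of probes detected was 40.9 to 44.0% on blastomere NT arrays, 42.9 and 43.3% on oocyte NT arrays, and 33.8 to 39.8% on the arrays of 4-cell controls, MII oocytes and the parthenote. In bulk samples, fewer cells of a type and less RNA per cell cannot be told apart, nor can messenger RNA carried over with the donor cell from messenger RNA made after the transfer.

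A difference was called at a Benjamini-Hochberg adjusted p below 0.05 in a limma model of 14 samples. Of 7181 genes tested, 664 (9.25%) were called between blastomere NT and oocyte NT embryos. At an unadjusted p below 0.05 the same limma model gave 1768 of the 7181. Blastomere NT embryos were higher for 297 genes (4.14%) and lower for 367 (5.11%), and the median difference over all genes was -0.01 on the log2 scale. The arrays of both kinds of embryo did not overlap for any of the called genes, nor for 3556 genes (49.5%) in all. The call rests on few arrays. It covered 195 genes without blastomere NT array 2 and 95 without oocyte NT array 1, and 394 and 385 without 4-cell control 1 or 2, which enter through the shared estimate of spread. With slide as a fixed block, carried by the 4-cell controls alone, 1 gene was called (*Pf4*) and all 664 kept their sign.

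**Figure D1:**
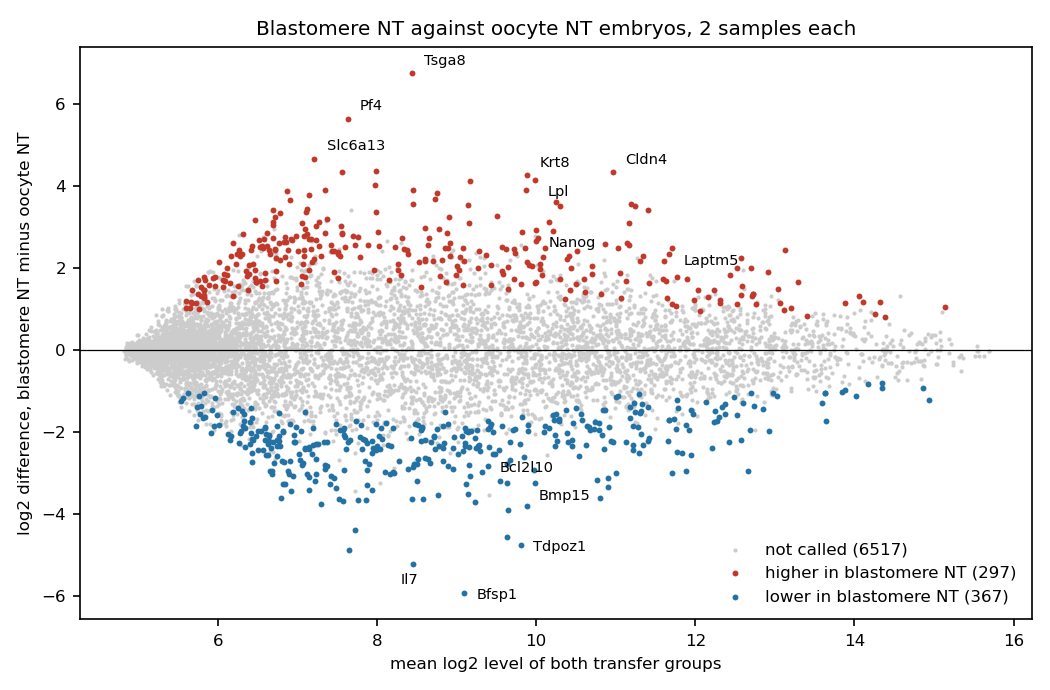
Each point is 1 of the 7181 genes, with the mean log2 level of both transfer groups on the horizontal axis and the log2 difference of blastomere NT minus oocyte NT embryos (2 samples each) on the vertical axis. The 297 genes called higher in blastomere NT embryos (red) and the 367 called lower (blue) are spread over the whole range of levels, with *Tsga8*, *Pf4* and *Slc6a13* at the top and *Bfsp1* and *Il7* at the bottom.

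Of the 93 genes singled out with a call, 22 kept it whichever single array of the NT embryos or 4-cell controls was left out. On the higher side these were *Tsga8*, *Pf4*, *Slc6a13*, *Cd79b*, *Gsta2*, *Cdc42ep5*, *Serpinb6a*, *Nppb*, *Mgst2*, *C1qb*, *C1qc*, *Adgre1* and *Actb*. On the lower side they were *Bfsp1*, *Il7*, *Tdpoz1*, *Bmp15*, *Hoxa7*, *Tcl1b2*, *Klhl11*, *Tcl1* and *Bcl2l10*. The other 71, which include every gene below that is described as higher or lower and not named here, lost the call without at least 1 array, most often blastomere NT array 2 or oocyte NT array 1.

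The gene with the largest difference was *Tsga8* (testis specific gene A8). Its log2 levels were 11.22, 12.42 and 11.23 on blastomere NT arrays, against 5.04 and 5.08 on oocyte NT arrays, where the probe was not detected. The 4-cell controls had 11.10 and 12.35, the parthenote 10.87 and the MII oocytes 5.14 and 5.18. Blastomere NT embryos, 4-cell controls and the parthenote therefore all carried the transcript, and oocyte NT embryos and MII oocytes lay at background. Blastomere NT embryos were at least 64.1-fold higher than oocyte NT embryos (limma adjusted p = 0.00139).

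*Pf4*, which encodes the chemokine platelet factor 4, had log2 levels of 10.53, 10.37 and 10.56 on blastomere NT arrays, against 4.86 and 4.76 on oocyte NT arrays. It was detected on no oocyte NT or 4-cell control array, and the level on the first array version was 10.76 in tail tip fibroblasts, from a table normalized separately. Blastomere NT embryos were at least 24.9-fold higher (adjusted p = 3.68e-05) and all 3 blastomere NT arrays had nearly the same level. Since *Pf4* was the single call that survived the slide block, its promoter is shown. The window runs from 250 bases before to 50 after the annotated start, on the + strand at chr5:90772185-90772484 (RefSeq, GRCm38.p6), written 5′ to 3′ with matches to the searched motifs in capitals.
Pf4: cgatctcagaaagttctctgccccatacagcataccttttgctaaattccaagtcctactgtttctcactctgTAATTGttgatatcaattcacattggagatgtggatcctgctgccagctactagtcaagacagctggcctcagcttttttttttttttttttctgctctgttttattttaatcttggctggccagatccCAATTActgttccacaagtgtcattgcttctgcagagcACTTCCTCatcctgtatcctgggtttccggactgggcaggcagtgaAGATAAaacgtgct
On both strands 8 motifs were searched, picked with the results known: the homeobox core TAATTA with its variant TAATTG, the ETS type GAGGAAGT with the shifted form AGAGGAAG, the GATA type AGATAA, the E-box CAGGTG, the box TATAAA and the run CTTTTAA. The ETS-type forms overlap, so 1 stretch can match both. The *Pf4* window held GAGGAAGT 1 time, found in 3.20% of all 32851 promoter windows, AGATAA 1 time (11.2% of windows) and TAATTG 2 times (8.0%). A match describes the letters and is no evidence of binding.

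The other high genes had mixed patterns in the 4-cell controls. *Slc6a13*, a transporter for the neurotransmitter GABA, had 8.59, 10.53 and 8.53 on blastomere NT arrays, against 4.87 and 4.88 on oocyte NT arrays, and was at least 13.3-fold higher (adjusted p = 0.00139). Neither 4-cell control detected it. *Cd79b*, known as a chain of the B cell receptor, had 10.20, 10.25 and 9.98 on blastomere NT arrays, against 5.59 and 6.02 on oocyte NT arrays, and 7.07 and 7.18 in 4-cell controls. Its difference was 4.36 ± 0.41 (log2, SE, adjusted p = 0.000457). The glutathione transferase *Gsta2* was at least 15.1-fold higher (adjusted p = 0.000554). The microsomal glutathione transferase *Mgst2* was higher by 3.83 ± 0.51 (adjusted p = 0.00232). *Nppb*, which encodes a natriuretic peptide, had 9.13, 8.54 and 9.04 on blastomere NT arrays, against 4.82 and 5.03 on oocyte NT arrays. The 4-cell controls had 8.02 and 8.42, and blastomere NT minus 4-cell controls was 0.60 (adjusted p = 0.616). The signalling adaptor *Cdc42ep5*, an effector of the GTPase Cdc42, was higher by 4.13 ± 0.49 (adjusted p = 0.00139). On the first array version *Slc6a13*, *Cd79b*, *Gsta2* and *Nppb* were detected on 0 of the 3 fibroblast arrays, and *Mgst2* and *Cdc42ep5* on all 3.

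Genes of the donor cell were defined on other arrays. A donor set was formed from the first array version as genes at least 2 log2 higher in tail tip fibroblasts than in interphase zygotes, M-phase zygotes and 2-cell controls. Of 701 such genes, 695 had a probe on the second version and 528 passed detection, 107 of them only through the 5 NT arrays. In blastomere NT against oocyte NT embryos, 91 of the 528 were higher (background 4.14%) and 7 were lower (background 5.11%). The median difference was 0.68, or 0.57 with genes at background set to their bound, against -0.01 over all genes. Over the 421 genes detected on the other arrays as well, 54 were higher, 4 were lower and the median was 0.59. With that filter 224 of all 6696 genes were higher and 335 lower, and their median was -0.03. The donor set made up 30.6% of the 297 genes higher in blastomere NT embryos.

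Among the 91 donor-set genes that were higher, 89 were detected on all blastomere NT arrays, 39 (42.9%) on no oocyte NT array and 45 on no 4-cell control. Over all 297 higher genes, 29.6% were detected on no oocyte NT array. Detection on the NT arrays partly follows from the call, which used the same arrays. The median log2 level of the set was 7.14, 7.99 and 7.14 on blastomere NT arrays, against 6.52 and 6.51 on oocyte NT arrays. It was 6.47 and 6.33 on 4-cell controls, 6.23 on the parthenote and 6.01 and 5.95 on MII oocytes. Blastomere NT array 2 was the highest array, and 370 of the 528 genes (70.1%) were higher on it than on arrays 1 and 3, against 42.8% of all genes. Without it fewer genes were called, in the set and over all genes, and the set median was 0.41, against 3e-04 over all genes. Calls also became fewer in both without oocyte NT array 1 or array 2. The set median was 0.68 without array 1 (-0.02 over all genes) and 0.66 without array 2 (0.01 over all genes).

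**Figure D2:**
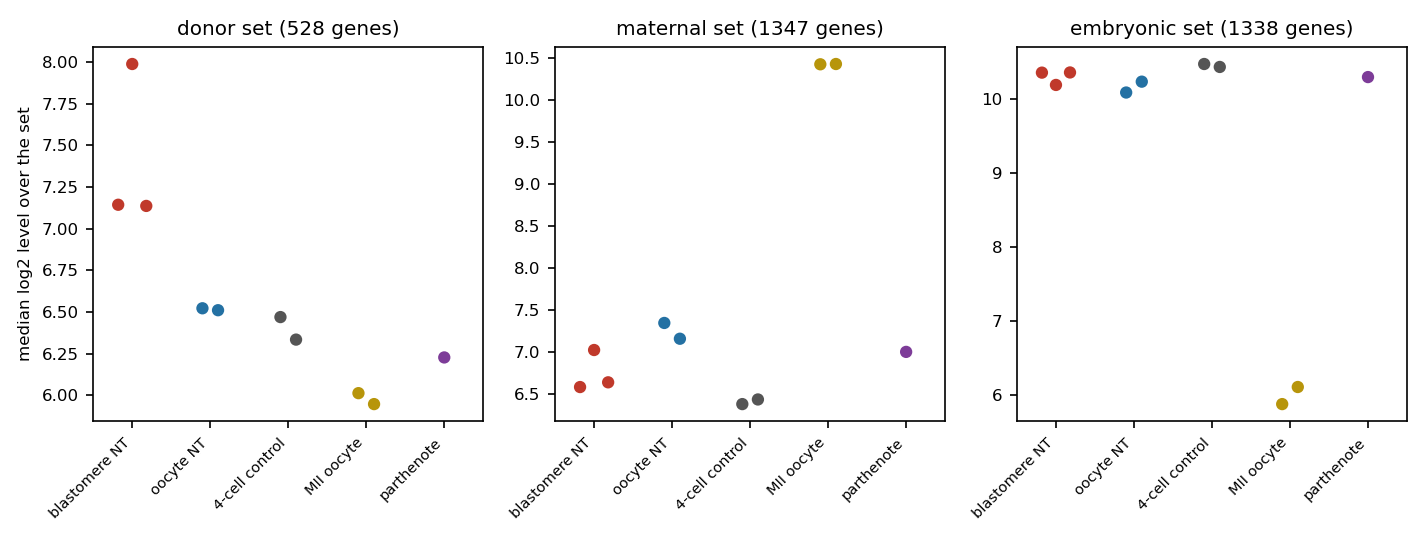
Each point is the median log2 level of a gene set on 1 array, for the donor, maternal and embryonic sets, and vertical scales differ between panels. In the donor set the blastomere NT arrays lie at 7.14, 7.99 and 7.14, above both oocyte NT arrays, and in the maternal set at 6.58, 7.02 and 6.64, below both.

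Leukocyte genes had the largest share of higher genes among the 32 lists, 57.1%. Of 24 genes listed as macrophage and leukocyte genes, 14 were tested, 8 were higher (background 4.14%) and 0 were lower in blastomere NT embryos (limma; 9 and 1 at an unadjusted p below 0.05), with a median difference of 1.26. The 8 were *C1qa*, *C1qb* and *C1qc*, the chains of the complement component C1q, *Adgre1*, the macrophage surface protein F4/80, *Lyz2* (lysozyme), *Ctss* (the protease cathepsin S), *Laptm5* (a lysosomal protein of blood cells) and *Cd14* (a receptor for bacterial lipopolysaccharide). Among the arrays described here, *Lyz2* and *Cd14* were detected on blastomere NT arrays only, and *Adgre1*, *C1qc* and *Ctss* on these and 1 oocyte NT array. Blastomere NT arrays alone were enough to pass these genes into the test, so the count is partly set by the detection filter. Fewer genes were called without blastomere NT array 2 or either oocyte NT array, in the list and over all genes. The list median was 1.23 without blastomere NT array 2, 1.45 without oocyte NT array 1 and 1.07 without oocyte NT array 2.

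*C1qb* had log2 levels of 8.10, 9.35 and 8.36 on blastomere NT arrays, against 6.11 and 4.73 on oocyte NT arrays, a difference of 3.37 ± 0.53 (adjusted p = 0.00524). *Adgre1* had 7.86, 8.04 and 7.81 on blastomere NT arrays, against 5.97 and 5.01 on oocyte NT arrays (2.45 ± 0.35, adjusted p = 0.0035). *Lyz2* had 8.12, 8.85 and 8.12 on blastomere NT arrays, against 5.65 and 5.74 on oocyte NT arrays, and was at least 6.34-fold higher (adjusted p = 0.00474). For all 3 genes the lowest blastomere NT array lay above the highest oocyte NT array, as for all 297 genes called higher. No 4-cell control detected these 3 genes. On the first array version *Adgre1* stood at 11.40 and *C1qb* at 10.74 in the cultures labelled tail tip fibroblasts, so those cultures held these 2 macrophage transcripts. There *Lyz2* stood at 6.04 (5.05 to 6.6), was detected on all 3 arrays and was not in the donor set. Of 10 fixed macrophage markers, 6 had a probe, 5 were tested and all 5 were higher, while *Ptprc*, the pan-leukocyte surface protein CD45, did not pass detection. The limit set by the detection filter applies to this count as well. The mean log2 level of the 5 was 8.06 to 8.92 on blastomere NT arrays and 6.30 and 6.65 on oocyte NT arrays, against 5.47 and 5.66 on 4-cell controls. It was 6.47 and 6.31 on MII oocytes and 5.84 on the parthenote, so the oocyte NT arrays lay near the MII oocytes. That likeness rests on *Laptm5*, with 10.51 and 10.41 on oocyte NT arrays and 11.23 and 10.45 on MII oocytes. The other tested markers lay at 5.01 to 6.09 on oocyte NT arrays and 4.88 to 6.23 on MII oocytes. On 4-cell controls they lay at 5.02 to 5.94. Of the markers of other cell types that a skin or oocyte preparation could hold, 2 of 14 cumulus and granulosa markers and 2 of 8 keratinocyte markers were tested, with none called in limma (0 and 1 at an unadjusted p below 0.05). Of 7 endothelial markers 4 were tested, and *Esam*, a junction protein also detected in both 4-cell controls, was at least 2.83-fold higher (adjusted p = 0.0361). In a longer list of 12 endothelial genes, 8 were tested and a second was called, *Eng* (endoglin), at least 1.27-fold higher (adjusted p = 0.0363) and detected on no oocyte NT or 4-cell control array. Neither call held without blastomere NT array 2 or without either oocyte NT array. The part of these cell types in the donor-set counts was not tested.

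Fibroblast matrix and surface genes were less uniform. Of 41 listed, 13 were tested, 1 was higher and 1 lower in blastomere NT embryos (7.69% each, near the background of 4.14% and 5.11%), with a median of 1.31. *Thy1*, a surface protein of fibroblasts, had 6.07, 8.54 and 6.11 on blastomere NT arrays, against 4.89 and 5.14 on oocyte NT arrays, and was at least 2.82-fold higher (adjusted p = 0.0405). *Dcn*, the matrix proteoglycan decorin, had 5.68, 9.45 and 6.12 on blastomere NT arrays, against 4.83 and 4.91 on oocyte NT arrays, where it was not detected, and missed the threshold (at least 3.61-fold, adjusted p = 0.0656). For both genes array 2 carried most of the difference. Without it the list held 0 higher and 1 lower gene and its median was 0.38. *Serpinf1*, a secreted serpin, and *S100a6*, a calcium-binding protein, were not called (1.82, adjusted p = 0.159, and 1.41, adjusted p = 0.289). *Mmp2*, the matrix metalloproteinase 2, went the other way, with 4.92, 8.58 and 5.52 on blastomere NT arrays, against 9.70 and 10.50 on oocyte NT arrays (-3.20 ± 0.84, adjusted p = 0.0376). MII oocytes also had high *Mmp2* (12.87 and 12.71), and the parthenote had 8.59.

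Actin and contractile genes included 5 higher (background 4.14%) and 0 lower (background 5.11%) of 13 tested, with a median of 1.42. *Anxa1*, a phospholipid-binding annexin, had 7.24, 9.47 and 7.44 on blastomere NT arrays, against 5.07 and 4.91 on oocyte NT arrays, and was at least 5.99-fold higher (adjusted p = 0.00512). *Zyx*, the focal adhesion protein zyxin, was higher by 3.13 ± 0.51 (adjusted p = 0.00599) and *Cnn3*, a calponin, by 2.31 ± 0.43 (adjusted p = 0.011). *Anxa2* was higher by 1.92 ± 0.46 (adjusted p = 0.0294). The cytoplasmic actin *Actb*, also among the 5, was higher by 1.49 ± 0.23 at its brightest probe (adjusted p = 0.00512). Its other probes gave -0.41 (adjusted p = 0.7) and -1.61 (adjusted p = 0.0371), and the mean of its probes gave -0.18 (adjusted p = 0.851). Its direction, and so its place in the count of 5, is uncertain. Smooth muscle actin, *Acta2*, stood at 12.61 in fibroblasts on the first version and was near background in both kinds of NT embryo. It had 5.70, 6.41 and 5.77 on blastomere NT arrays, against 5.49 and 6.03 on oocyte NT arrays (0.31, adjusted p = 0.699), and the sign turned to -0.026 without blastomere NT array 2. Fewer genes were called without blastomere NT array 2 or oocyte NT array 1, in the list and over all genes. The list median was 1.21 without blastomere NT array 2 and 1.68 without oocyte NT array 1.

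Higher donor-set genes outside these lists included enzymes and membrane proteins. *Serpinb6a*, an inhibitor of proteases, had 11.39, 12.31 and 11.31 on blastomere NT arrays, against 7.80 and 8.03 on oocyte NT arrays (3.91 ± 0.55, adjusted p = 0.0035). *Retreg1*, a receptor for turnover of the endoplasmic reticulum, was at least 11.1-fold higher (adjusted p = 0.00599). *Lpl*, lipoprotein lipase, had 11.13, 12.95 and 11.27 on blastomere NT arrays, against 6.51 and 9.31 on oocyte NT arrays (4.16 ± 1.10, adjusted p = 0.0392). *Gpnmb*, a glycoprotein of macrophages and melanocytes that is in the maternal set described below and not in the donor set, had 12.20, 13.80 and 12.22 on blastomere NT arrays, against 11.20 and 7.77 on oocyte NT arrays (3.52 ± 0.98, adjusted p = 0.0471). MII oocytes also carried several of these transcripts, with *Lpl* at 12.79 and 13.26, *Gpnmb* at 12.29 and 12.00, *Laptm5* at 11.23 and 10.45 and *C1qb* at 8.57 and 8.11. Of the 528 donor-set genes, 70 (13.3%) were also in the maternal set and 85 (16.1%) in the embryonic set defined below.

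**Figure D3:**
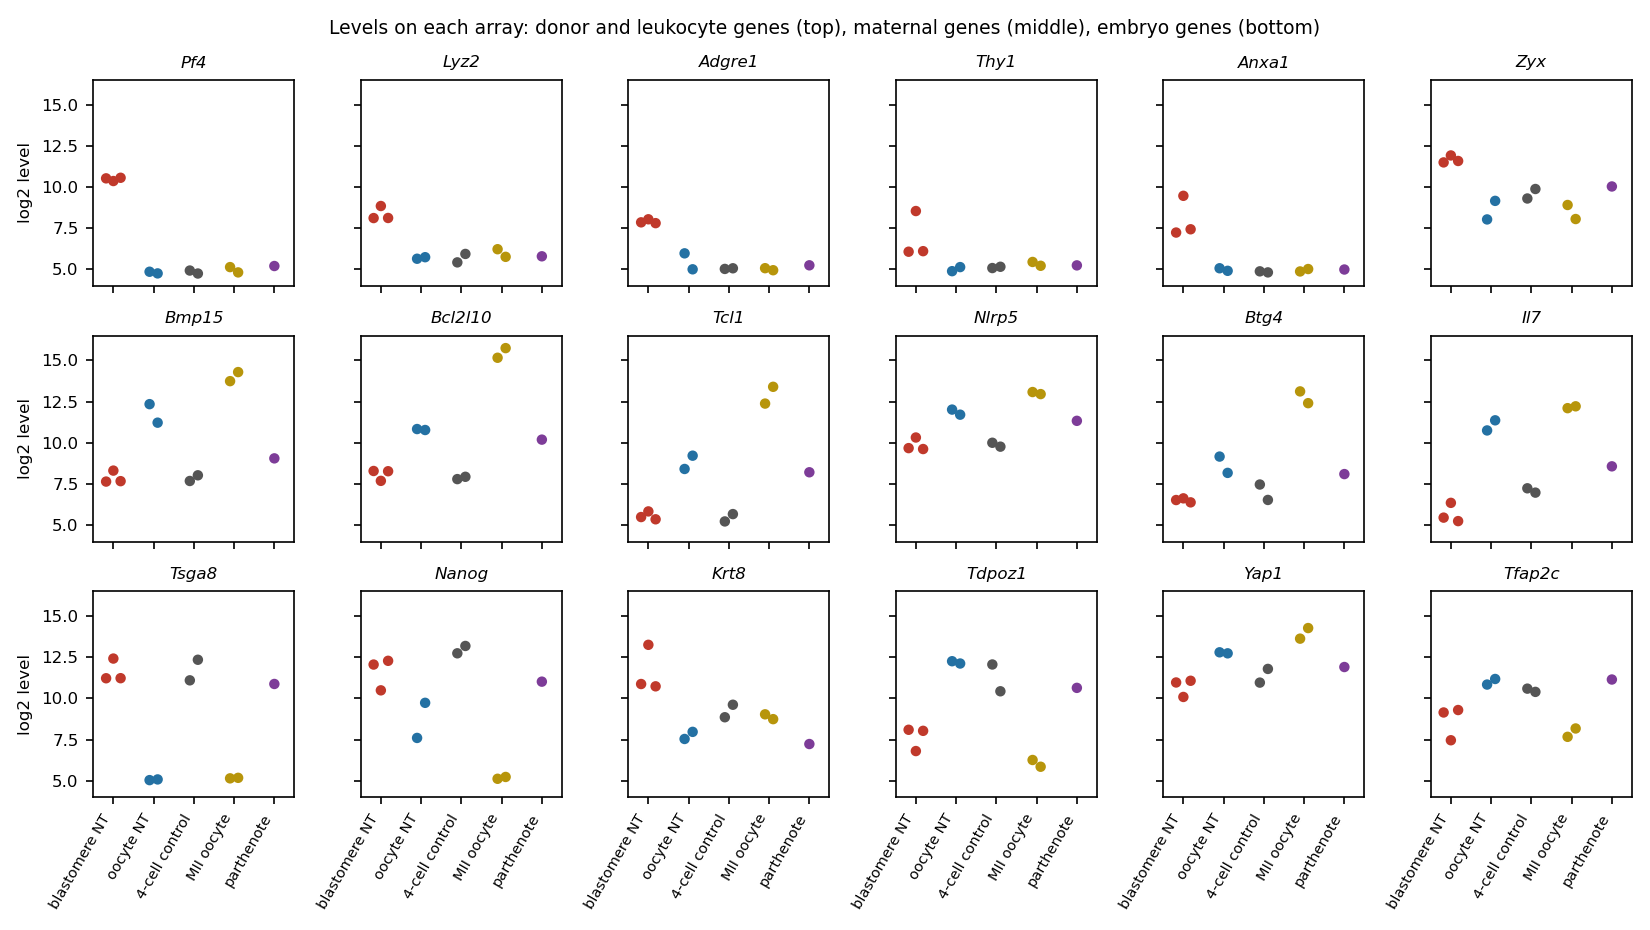
Each point is the log2 level of a gene on 1 array, with blastomere NT arrays 1 to 3 in order from left to right. The top row shows donor and leukocyte genes, the middle row maternal genes and the bottom row genes from the embryonic set or the embryo gene lists. In the bottom row *Yap1* is in the maternal set, and *Krt8* is not in the embryonic set. *Pf4*, *Lyz2* and *Anxa1* were detected on all blastomere NT arrays and on no other array shown, while *Bcl2l10* and *Tcl1* lie in oocyte NT embryos between blastomere NT embryos and MII oocytes.

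The opposite pattern was found for oocyte transcripts. A maternal set was formed as genes at least 2 log2 higher in MII oocytes than in 4-cell controls on the same array version, which gave 1347 genes. Of these, 169 were lower (background 5.11%) and 31 were higher (background 4.14%) in blastomere NT embryos, with a median difference of -0.30. With genes at background set to their bound the median was -0.06. The set made up 46.0% of the 367 genes lower in blastomere NT embryos. All 169 were detected on both oocyte NT arrays, 160 on the parthenote and 28 (16.6%) on no blastomere NT array. Over all 367 lower genes the last share was 18.5%. Detection on the NT arrays partly follows from the call, which used the same arrays. The median log2 level of the set was 6.58, 7.02 and 6.64 on blastomere NT arrays, against 7.34 and 7.16 on oocyte NT arrays. It was 7.0 on the parthenote, 6.38 and 6.43 on 4-cell controls, and 10.43 on MII oocytes, so both kinds of NT embryo lay far below the oocyte. The distance between MII oocytes and 4-cell controls follows from how the set was defined. Blastomere NT array 2 and the parthenote had nearly the same median. Fewer genes were called without blastomere NT array 2 or either oocyte NT array, in the set and over all genes. The set median was -0.38 without blastomere NT array 2, -0.23 without oocyte NT array 1 and -0.32 without oocyte NT array 2. Over all genes these medians were 3e-04, -0.02 and 0.01.

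Of 51 listed oocyte and maternal genes, 33 were tested, 8 were lower (background 5.11%) and 1 was higher (background 4.14%) in blastomere NT embryos, with a median of -0.97. The mean log2 level of the 5 tested oocyte markers was 9.30 to 9.75 on blastomere NT arrays and 10.58 and 11.53 on oocyte NT arrays. *Bmp15*, a growth factor secreted by the oocyte, had log2 levels of 7.64, 8.31 and 7.67 on blastomere NT arrays, against 12.34 and 11.22 on oocyte NT arrays. The MII oocytes had 13.74 and 14.29, the parthenote 9.05 and the 4-cell controls 7.68 and 8.02. Blastomere NT embryos thus lay at the 4-cell level and oocyte NT embryos nearer the oocyte, and the difference was -3.80 ± 0.49 (adjusted p = 0.00205). The promoter of *Bmp15* is shown as the leading maternal growth factor of this comparison, on the - strand at chrX:6320675-6320974 (RefSeq, GRCm38.p6), with the same span and marks as for *Pf4*.
Bmp15: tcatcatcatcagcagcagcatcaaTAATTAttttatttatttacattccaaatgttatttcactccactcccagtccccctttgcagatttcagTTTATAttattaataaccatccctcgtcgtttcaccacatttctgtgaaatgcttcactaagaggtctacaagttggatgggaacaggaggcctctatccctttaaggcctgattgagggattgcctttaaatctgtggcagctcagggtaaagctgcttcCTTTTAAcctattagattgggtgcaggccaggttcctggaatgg
This window held TAATTA 1 time (5.29% of all windows), TATAAA 1 time on the opposite strand (13.6%) and CTTTTAA 1 time (4.86%), and none of the motifs found in *Pf4*.

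*Bcl2l10*, a regulator of apoptosis abundant in eggs, had 8.28, 7.68 and 8.27 on blastomere NT arrays, against 10.83 and 10.77 on oocyte NT arrays (-2.82 ± 0.33, adjusted p = 0.00139). *Tcl1* and *Tcl1b2*, related cofactors of the kinase Akt, were lower (-3.19 ± 0.47, adjusted p = 0.00438, and -3.64 ± 0.44, adjusted p = 0.00153). *Nlrp5*, the maternal effect gene also called Mater, was lower (-1.88 ± 0.33, adjusted p = 0.00889) at its brightest probe, but its other probe gave -0.47 (adjusted p = 0.525), so the call is uncertain. *Btg4*, an adaptor for the clearance of maternal messenger RNA, was lower (-2.13 ± 0.48, adjusted p = 0.0225). The homeobox gene *Obox1* was detected on no blastomere NT array and on both oocyte NT arrays, and was at least 2.61-fold lower (adjusted p = 0.03). *Oas1d*, an oocyte member of the oligoadenylate synthetase family, was lower (-2.24 ± 0.62, adjusted p = 0.0464). In each of these genes MII oocytes were the highest group.

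Other oocyte genes did not pass the test. *Gdf9*, the partner growth factor of *Bmp15*, had 12.91, 13.78 and 12.85 on blastomere NT arrays, against 14.21 and 13.81 on oocyte NT arrays (-0.68 ± 0.31, adjusted p = 0.207). For the zona pellucida protein *Zp3* the difference was -0.26 (adjusted p = 0.81), for the oocyte histone chaperone *Npm2* -1.13 (adjusted p = 0.228) and for the oocyte linker histone *H1f8* -0.40 (adjusted p = 0.721). *Khdc3*, of the same subcortical complex as *Nlrp5*, was higher in blastomere NT embryos (2.91 ± 0.50, adjusted p = 0.00741), with 7.39 and 8.34 in MII oocytes and 11.50 and 10.90 in 4-cell controls. Fewer genes were called without oocyte NT array 1 or blastomere NT array 2, in the oocyte and maternal list and over all genes. The list median was -0.72 without oocyte NT array 1 and -0.92 without blastomere NT array 2.

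Several of the largest falls lay outside the list. The cytokine *Il7* had 5.45, 6.35 and 5.24 on blastomere NT arrays, against 10.75 and 11.36 on oocyte NT arrays (-5.21 ± 0.52, adjusted p = 0.000554), and MII oocytes had 12.10 and 12.21. The homeobox gene *Hoxa7* was lower (-3.69 ± 0.58, adjusted p = 0.00512), as was the extracellular matrix gene *Reln* (-4.39 ± 0.84, adjusted p = 0.0119), and both were high in MII oocytes. *Bfsp1*, a filament protein of the lens, did not follow the oocyte. It had 6.01, 6.42 and 5.68 on blastomere NT arrays, against 12.75 and 11.36 on oocyte NT arrays, 7.37 and 5.64 on MII oocytes and 5.32 and 6.21 on 4-cell controls. Its difference was the largest fall (-5.93 ± 0.73, adjusted p = 0.00167). The arrestin-related *Arrdc4* had the same shape, with 6.69, 8.44 and 7.20 on blastomere NT arrays, against 11.95 and 11.22 on oocyte NT arrays (-3.89 ± 0.64, adjusted p = 0.00629), and 5.14 to 6.03 on 4-cell controls and MII oocytes. Both genes were therefore high in oocyte NT embryos alone among these groups. *Atf4*, a transcription factor of the amino acid response, was lower in blastomere NT embryos (-3.52 ± 0.54, adjusted p = 0.00512).

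Transcripts of the embryonic genome were compared through an embryonic set, the 1338 genes at least 2 log2 higher in 4-cell controls than in MII oocytes. In blastomere NT embryos 75 were higher (background 4.14%) and 43 lower (background 5.11%), and the median difference was 0.16. The median log2 level was 10.36, 10.19 and 10.36 on blastomere NT arrays, against 10.09 and 10.24 on oocyte NT arrays, and 10.30 on the parthenote and 5.88 and 6.11 on MII oocytes. The level on blastomere NT array 2 thus lay between both oocyte NT arrays, and all 5 NT arrays lay far above the oocyte. The 4-cell controls had 10.48 and 10.44, above all 5 NT arrays. The set was defined by the difference between 4-cell controls and MII oocytes, so the distance between these 2 groups follows from the definition. Of the 75 higher genes, 10 (13.3%) were detected on no oocyte NT array, *Tsga8* among them, against 29.6% of all 297 higher genes. Fewer genes were called without blastomere NT array 2 or either oocyte NT array, in this set and over all genes. The set median was 0.25 without blastomere NT array 2, 0.08 without oocyte NT array 1 and 0.23 without oocyte NT array 2. Over all genes these medians were 3e-04, -0.02 and 0.01.

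Among 17 tested pluripotency genes 1 was higher (5.88%, near the background of 4.14%), *Nanog*, a transcription factor of the inner cell mass. It had 12.05, 10.49 and 12.28 on blastomere NT arrays, against 7.60 and 9.73 on oocyte NT arrays (2.66 ± 0.71, adjusted p = 0.0412), and 12.74 and 13.18 on 4-cell controls. The groups did not overlap, as for every called gene, but array 2 lay closer to oocyte NT array 2 than to the other blastomere NT arrays. The nuclear receptor *Nr5a2* (0.71, adjusted p = 0.289), *Klf5* (-0.39, adjusted p = 0.684) and *Dppa4* (-0.52, adjusted p = 0.233) were not called. *Pou5f1*, which encodes Oct4, had 9.39, 8.19 and 9.61 on blastomere NT arrays, against 8.84 and 8.45 on oocyte NT arrays (0.20, adjusted p = 0.9), and 10.73 and 10.92 on 4-cell controls, above all 5 NT arrays.

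Genes of the trophectoderm and primitive endoderm, the outer and inner epithelia of the blastocyst, had 1 higher and 2 lower of 16 tested, with a median of 0.06. These shares were 6.25% higher (background 4.14%) and 12.5% lower (background 5.11%). None was called without blastomere NT array 2, nor without oocyte NT array 1, where the median was -0.02. The keratin *Krt8* had 10.87, 13.25 and 10.73 on blastomere NT arrays, against 7.54 and 7.97 on oocyte NT arrays (4.28 ± 0.79, adjusted p = 0.0103). The tight junction gene *Cldn4*, from the compaction list, was higher by 4.34 ± 0.93 (adjusted p = 0.0185) and the adhesion protein *Cdh1* by 1.13 ± 0.31 (adjusted p = 0.047), while the polarity kinase *Prkcz* was lower (-2.35 ± 0.54, adjusted p = 0.0241). *Yap1*, the coactivator of the Hippo pathway, was lower (-2.21 ± 0.39, adjusted p = 0.00874), and so was the transcription factor *Tfap2c* (-2.67 ± 0.54, adjusted p = 0.0143). *Yap1* was in the maternal set, with 13.63 and 14.27 on MII oocytes and 10.96 and 11.79 on 4-cell controls. Its difference between blastomere NT embryos and 4-cell controls was -0.82 (limma adjusted p = 0.386). *Tfap2c* was in the embryonic set. *Cdx2*, a trophectoderm regulator, stood near background in both NT groups, with 6.60, 5.05 and 6.71 on blastomere NT arrays, against 5.01 and 5.11 on oocyte NT arrays, where it was not detected (adjusted p = 0.396), and 9.15 and 9.83 on 4-cell controls. *Tead4*, the DNA-binding partner of Yap1, was not called (-0.10, adjusted p = 0.929).

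*Tdpoz1*, of a gene family switched on transiently in the early embryo, had 8.09, 6.80 and 8.03 on blastomere NT arrays, against 12.26 and 12.12 on oocyte NT arrays (-4.76 ± 0.59, adjusted p = 0.00167). The 4-cell controls had 12.06 and 10.43 and the parthenote 10.64. It was the 1 called gene of 8 tested in the list of 2-cell transient genes (12.5% lower, background 5.11%). For this gene oocyte NT embryos lay with the controls and blastomere NT embryos apart from them.

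Genes of energy supply and protein turnover had a median difference above 0, as did most of the 32 lists. Of 51 oxidative phosphorylation genes, 8 were higher (background 4.14%) and 0 lower, with a median of 0.40. *Ndufa5* and *Ndufs4*, subunits of respiratory complex I, were higher by 2.30 ± 0.41 (adjusted p = 0.00926) and 2.29 ± 0.46 (adjusted p = 0.0139), and *Uqcrb*, of complex III, by 1.65 ± 0.44 (adjusted p = 0.0421). *Ndufa5* had 12.23, 12.80 and 12.13 on blastomere NT arrays, against 10.20 and 10.18 on oocyte NT arrays, with 12.16 and 12.38 on 4-cell controls. Without blastomere NT array 2, none of the 51 was called, and 1 was higher without oocyte NT array 1 and 4 without oocyte NT array 2. Mitochondrial ribosomal protein genes had 3 higher of 55 (median 0.42), proteasome genes 3 of 29 (median 0.40) and lysosome genes 3 of 15 (median 0.58), with 0 lower in each. The share of 5.45% in the mitochondrial ribosomal list is near the background of 4.14%. In all 3 lists no gene was called without blastomere NT array 2 or without oocyte NT array 1, and without oocyte NT array 2 the counts of higher genes were 3, 1 and 2. *Mrpl35* was at least 4.18-fold higher (adjusted p = 0.00929). The lysosomal membrane protein *Lamp2* was higher by 2.45 ± 0.57 (adjusted p = 0.0262). The glycolytic gene *Hk2* (hexokinase 2) was higher by 3.51 ± 0.74 (adjusted p = 0.0175), 1 of 15 tested in its list (6.67%, near the background of 4.14%).

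Stress and p53 genes gave few calls. Of 14 tested p53 genes, 3 were higher (background 4.14%) and 0 lower (median 0.39). None was called without blastomere NT array 2, where the median was -0.03. Without oocyte NT array 1 none was called, and without oocyte NT array 2 the list had 0 higher and 1 lower. The 3 included *Cdkn1a*, the cell cycle inhibitor p21, with 12.22, 12.68 and 12.30 on blastomere NT arrays, against 10.81 and 10.64 on oocyte NT arrays (1.75 ± 0.46, adjusted p = 0.0405), and *Zmat3*, at least 5.01-fold higher (adjusted p = 0.011). Of 23 heat shock and chaperone genes, 2 were higher (8.7%, background 4.14%). These were *Hsp90aa1*, by 2.63 ± 0.54 (adjusted p = 0.015), and *Pdia6* (at least 1.35-fold, adjusted p = 0.0249). Both calls were lost without blastomere NT array 2 and without oocyte NT array 1. Splicing genes (37 tested), DNA replication genes (28), ribosomal protein genes (28), imprinted genes (12) and linker and replacement histone genes (8) had no call in limma, with medians of 0.26, 0.20, 0.15, 0.60 and 0.42. At an unadjusted p below 0.05 these lists held 7, 4, 5, 3 and 3 genes, against 1768 of all 7181 genes. At this number of samples the test found 50% of simulated differences of 2 log2 and 4% of those of 1 log2, so most differences of 1 log2 were not detectable.

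Both kinds of NT embryo were also set beside the 4-cell controls, which they share. Blastomere NT embryos differed from them in 202 genes (2.81%), of which 149 were higher (2.07%) and 53 lower (0.738%). Oocyte NT embryos differed in 793 genes (11%), with 486 higher (6.77%) and 307 lower (4.28%). Under scaling to the 75th percentile oocyte NT embryos had 482 higher and 508 lower genes, and the median of all genes moved to -0.16 in blastomere NT and -0.14 in oocyte NT embryos. Of the donor set, 69 genes were higher and 6 lower in blastomere NT embryos (median 0.69), and 39 were higher and 26 lower in oocyte NT embryos (median 0.07). Over all genes, the counts fell to 54 for blastomere NT embryos without blastomere NT array 2, and to 128 without oocyte NT array 2. They fell to 80 for oocyte NT embryos without oocyte NT array 1. Leaving out 4-cell control 1 or 2 left 19 and 21 genes for blastomere NT embryos and 82 and 83 for oocyte NT embryos.

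Single genes were compared with the 4-cell controls in each NT group. *Pf4* was at least 21.3-fold higher than in 4-cell controls in blastomere NT embryos (adjusted p = 3.91e-05), and no oocyte NT or 4-cell control array detected it. *Laptm5* was higher in both, by 6.39 in blastomere NT embryos (adjusted p = 0.000674) and by 3.90 in oocyte NT embryos (adjusted p = 0.00611), and so was *Gpnmb*, at least 125-fold in blastomere NT embryos (adjusted p = 0.00387) and at least 10.9-fold in oocyte NT embryos (adjusted p = 0.027). For *Bmp15* the difference from 4-cell controls was 0.13 in blastomere NT embryos (adjusted p = 0.973) and 3.93 in oocyte NT embryos (adjusted p = 0.00226). *Cdx2* was lower in blastomere NT embryos (-3.64, adjusted p = 0.00516) and at least 12.7-fold lower in oocyte NT embryos (adjusted p = 0.0018). *Tsga8* differed by 0.10 in blastomere NT embryos (adjusted p = 0.985) and was at least 59.7-fold lower in oocyte NT embryos (adjusted p = 0.00211). For *Nanog* the differences were -1.63 in blastomere NT embryos (adjusted p = 0.33) and -4.30 in oocyte NT embryos (adjusted p = 0.00662).

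**Figure D4:**
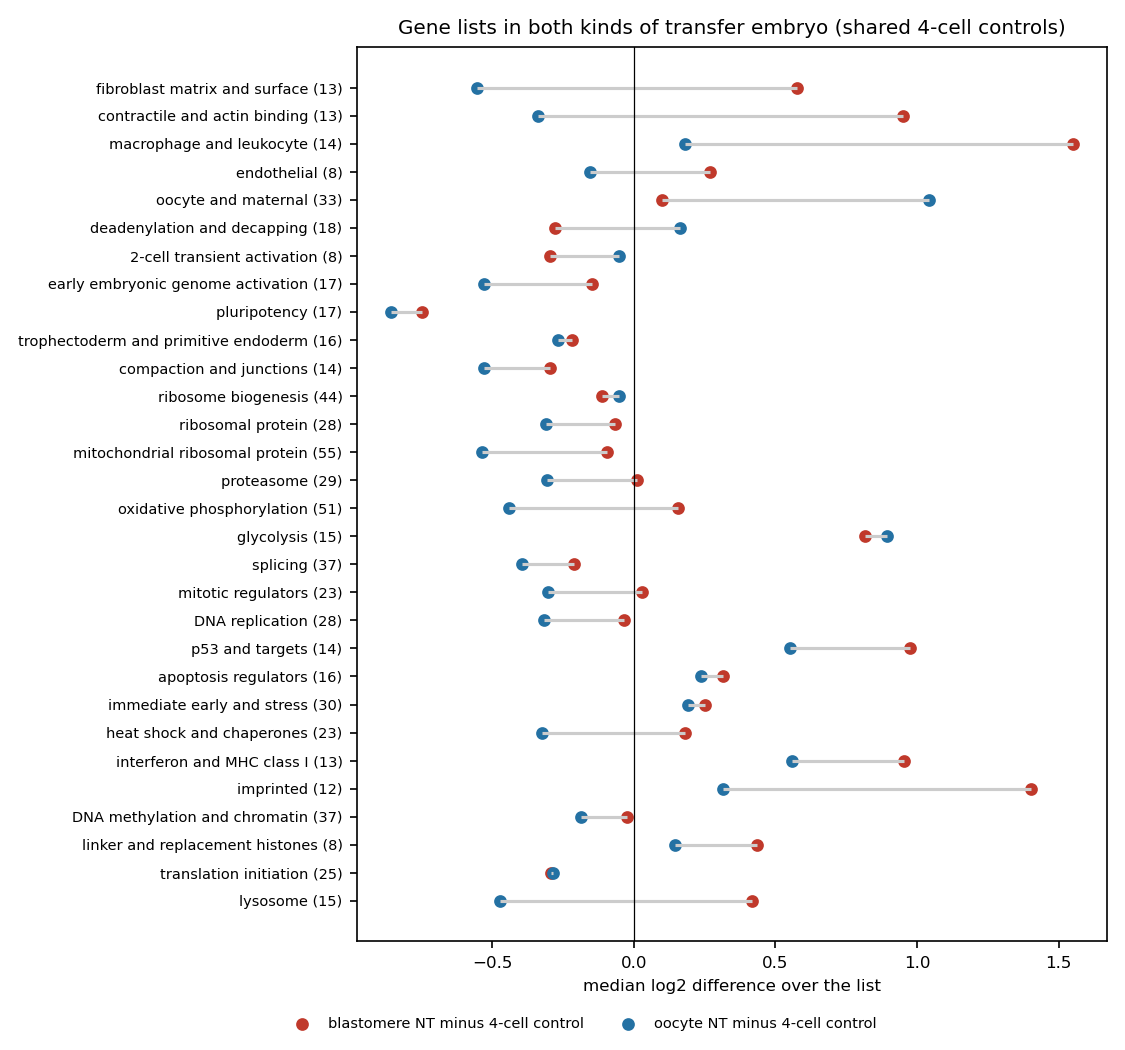
Each row is 1 of 30 gene lists with at least 8 tested genes (number in brackets), and the horizontal axis is the median log2 difference from the shared 4-cell controls in blastomere NT embryos (red) and in oocyte NT embryos (blue). The macrophage and leukocyte list lies at 1.55 in blastomere NT embryos and 0.18 in oocyte NT embryos, and the oocyte and maternal list at 0.10 and 1.04.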

How the data were processed

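Values were the average bead intensity of each probe and array, not normalized, as deposited by the authors, with a detection p-value beside each, per the file headers. GenomeStudio made them, per the submitters' processing notes, with no version stated. Each column of the deposited series matrix (intensity of 16075 probes) was a straight-line transform of the unnormalized one (r = 1). Its scaling is unstated, and column medians were 4.39 to 12.0.

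The 15 arrays of the second version were background corrected and quantile normalized on the log2 scale with neqc of limma 3.58.1 (R 4.3.3, offset 16). Probes were kept when 2 or more arrays detected them at p below 0.05, and the brightest probe stood for a gene. Of 25697 probes, 15052 had 1 symbol, 10645 none and 0 several, and 15043 matched the RefSeq table. Levels of different probes are not comparable. One group-means limma model (eBayes with trend, 14 samples, 9 groups, 5 residual degrees of freedom) gave two-sided Benjamini-Hochberg adjusted p-values over 7181 genes. Where no array of the lower group detected a probe, its level there is a bound and the fold is written as "at least", taken per array from the lowest detected signal or the probe's own value. These floors lay at 5.78 to 6.58 log2, and the number of arrays limits the precision. The donor set came from a model of 19 samples of the first version. For 4-cell control 2 the title gives another slide than the description; that of the description was taken, because an oocyte NT array holds the position in the title.

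Named genes were the 10 largest rises and falls with a call, no overlap and detection throughout the higher group, up to 3 called genes of each of 32 lists, up to 5 each way from the donor, maternal and embryonic sets, and fixed markers; some were left out for length. *Adgre1*, *C1qa*, *C1qc*, *Ctss*, *Cd14*, *Actb*, *Nlrp5*, *Oas1d*, *Obox1* and *Khdc3* were named after their values were seen. Members, lists and tests were chosen with earlier results of these data known. The model was checked on simulated data with 100 genes each moved by 1 and 2 log2, where 1.82% of calls were false. Alternatives changed the background correction, scaling, source of values, detection filter, probe choice, samples in the fit, slide block and arrays left out.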

Additional observations from a re-analysis of the deposited data

How the results depend on the processing

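The medians of the donor, maternal and embryonic sets kept their sign under all 18 alternatives each, at 0.36 to 0.87, -0.51 to -0.17 and 0.08 to 0.25. The 664 calls between blastomere NT and oocyte NT embryos became 1464 with slide as a random block (correlation -0.183), 1203 with 3 separate blastomere NT arrays and 230 with both groups alone, and all 664 kept their sign under these. With slide as a fixed block 1 call was left (517 genes at an unadjusted p below 0.05). Leaving out single arrays gave 95 to 672 calls. For blastomere NT against 4-cell controls the count was 202, and it became 130 without a detection filter, 20 with the fixed slide block, 95 with probes detected on other arrays, and 19 to 209 with single arrays left out. For oocyte NT against 4-cell controls it was 793, and it became 495 without the filter, 78 with the block and 80 to 793 with arrays left out. The filter on other arrays and leaving out 4-cell controls were chosen after seeing the data. For oocyte NT against 4-cell controls 75th percentile scaling put 48.7% of calls on the higher side, against 61.3%. The sign turned for *Actb* with the mean of its probes (-0.18). It also turned for 4 genes without a call: *Tead4* (0.035 with 3 separate arrays, 0.11 with the block, -0.17 to 0.31 with single arrays left out), *H1f8* (0.33 with the block), *Acta2* (-0.026 to 0.58 with arrays left out) and *Klf5* (-0.50 to 0.14 with arrays left out), in each of these last ranges through blastomere NT array 2. The cause was not tested. *Eif3a* and *Nlrp5* are uncertain, since their probes differed (2.51 and 0.33, and -1.88 and -0.47). No paired analysis was possible because replicate numbers of these arrays only follow their order and pair no samples. With 2 samples a group and slide, time and recipient changing together, the comparison describes these arrays.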
